A study of Homo sapiens with 6 samples.

Results

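The inflammasome and gasdermin genes described here are 10 human genes: the sensors NLRP3, NLRP1 and AIM2, the adaptor PYCARD, the inflammatory caspases CASP1, CASP4 and CASP5, and the pore-forming gasdermins GSDMB, GSDMD and GSDME. They were chosen by name and found through their Ensembl identifiers in GENCODE 44, and all 10 were among the 60676 genes listed in the deposited tables. The study measured mRNA in HT29 cells, an established line from a human colorectal adenocarcinoma that carried no engineered change here (genotype WT in the labels). Cells were kept for 48 h in control medium (untreated), in medium without histidine (-His) or in medium without tryptophan (-Trp), with 2 libraries per group, and tryptophan depletion served the study as a control for a general response to amino acid shortage. The histidine-free medium was built on an RPMI 1640 powder and the tryptophan-free medium on a DMEM F-12 powder, both with dialyzed and heat-inactivated serum. The line was routinely grown in DMEM with ordinary serum, and full RPMI 1640 was the control in the study's proteomics, but for RNA-seq the sources used here say only that the medium was a control. Therefore loss of an amino acid and a change of base medium or serum cannot be told apart in the comparisons with untreated cells, nor the missing amino acid and the base medium in the comparison of -His with -Trp. HT29 is a single tumor line, and nothing in the labels says whether the libraries of a group came from separate cultures.

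The inflammasome is a cytosolic complex in which a sensor such as NLRP3 gathers the adaptor ASC, the protein of PYCARD, and through it activates caspase-1. Caspase-1 matures the cytokines IL-1β and IL-18 and cuts gasdermin D, whose freed N-terminal part opens pores in the plasma membrane and leads to pyroptosis, a lytic form of cell death. In the noncanonical route caspase-4 and caspase-5 bind bacterial lipopolysaccharide inside the cell and cut gasdermin D themselves, a route well known from the intestinal epithelium.

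The libraries held 46390819 to 64388876 reads assigned to genes. Untreated libraries 1 and 2 differed from each other by more than counting error (chi-square per degree of freedom 8.77 over 17810 genes), as did the libraries of -His (4.03) and, less so, of -Trp (1.85), so no library was taken for a second copy of another. In bulk RNA, fewer cells with a transcript and less of it per cell cannot be told apart. All 12 markers of colon epithelium were present in untreated and -Trp cells, while CDX1 had 0 reads in -His. In -His 5 were higher and 7 lower (limma, adjusted p under 0.05), beside 39.1% and 38.2% of all genes tested. The 7 count CDX1 and GPA33, which reached the mean of 10 normalized counts required for testing through their untreated level alone. In -Trp 6 were higher and 3 lower, beside 36.1% and 34.8%, counting CDX1, which entered there in the same way. KRT20 (log2 1.74) and KRT19 (1.55) rose in -His, and GPA33 (-3.59) and LGALS4 (-1.57) fell. The list summed to 448992 to 476992 normalized counts in untreated, 583477 to 616635 in -His and 631972 to 635933 in -Trp libraries. KRT8 alone made up most of the -His sum, with a mean of 330690, so the sum says little of the other markers. Of 14 monocyte and macrophage markers, 9 had at most 3 reads in untreated cells, 5 in -His and 7 in -Trp, and PTPRC, TYROBP, CD68, AIF1 and FCGR3A were among them in every group. The list without LYZ summed to 195 to 221 normalized counts in untreated, 466 to 489 in -His and 462 to 472 in -Trp libraries. FCGR1A had 3.28 and 1.99 normalized counts in untreated, 146 and 128 in -His and 3.20 and 3.66 in -Trp libraries, and MRC1, ITGAX and CSF1R were also higher in both -His libraries than in the untreated ones. CD14 had 104 and 119 in untreated, 50.6 and 63.1 in -His and 380 and 367 in -Trp libraries, where it made up most of the sum, and ITGAM had 65.6 and 76.6, then 103 and 96.7, then 4.27 and 10.99. LYZ, a lysozyme that secretory gut cells also make, had 64763 and 69381 in untreated, 12419 and 14442 in -His and 38031 and 38058 in -Trp libraries. Of 11 neutrophil and mast cell markers, 10 had at most 3 reads in each group (sums of 4.07 to 8.54), as did 5 or 6 of 8 lymphocyte markers (59.6 to 91.8) and 4 or 5 of 9 fibroblast and endothelial markers (85.8 to 132). The part of these differences in the results below was not tested.

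In both depletions NLRP3, PYCARD and GSDMD fell and CASP4 rose. GSDMB rose in -Trp alone among the comparisons with untreated cells, and GSDME rose in -His, from a low level and with a call that was lost without -His library 1 or without untreated library 2. NLRP1, AIM2, CASP1 and CASP5 had means under the 10 normalized counts required for testing. Of the 6 members tested in -His, 2 rose and 3 fell, where 77.3% of all 18288 genes tested passed the threshold (39.1% higher, 38.2% lower). Of the same 6 in -Trp, 2 rose and 3 fell, counting NLRP3, which met the filter there through its untreated level alone, where 70.8% of 17960 genes passed (36.1% higher, 34.8% lower). The median log2 fold change of the 6 was -0.48 in -His and -0.35 in -Trp, beside 0.010 and 0.013 over all genes tested. With so large a background, a count of 5 in 6 sets the members apart in neither comparison, and the description below rests on the size and direction of each gene's difference. A call means an adjusted p under 0.05 in limma on log2(normalized count + 1), a scale that understates the fold change of weakly expressed genes. Levels per library are given in normalized counts after scaling all 6 libraries together, whereas each comparison with untreated cells was fitted in its own deposited table.

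**Figure D1:**
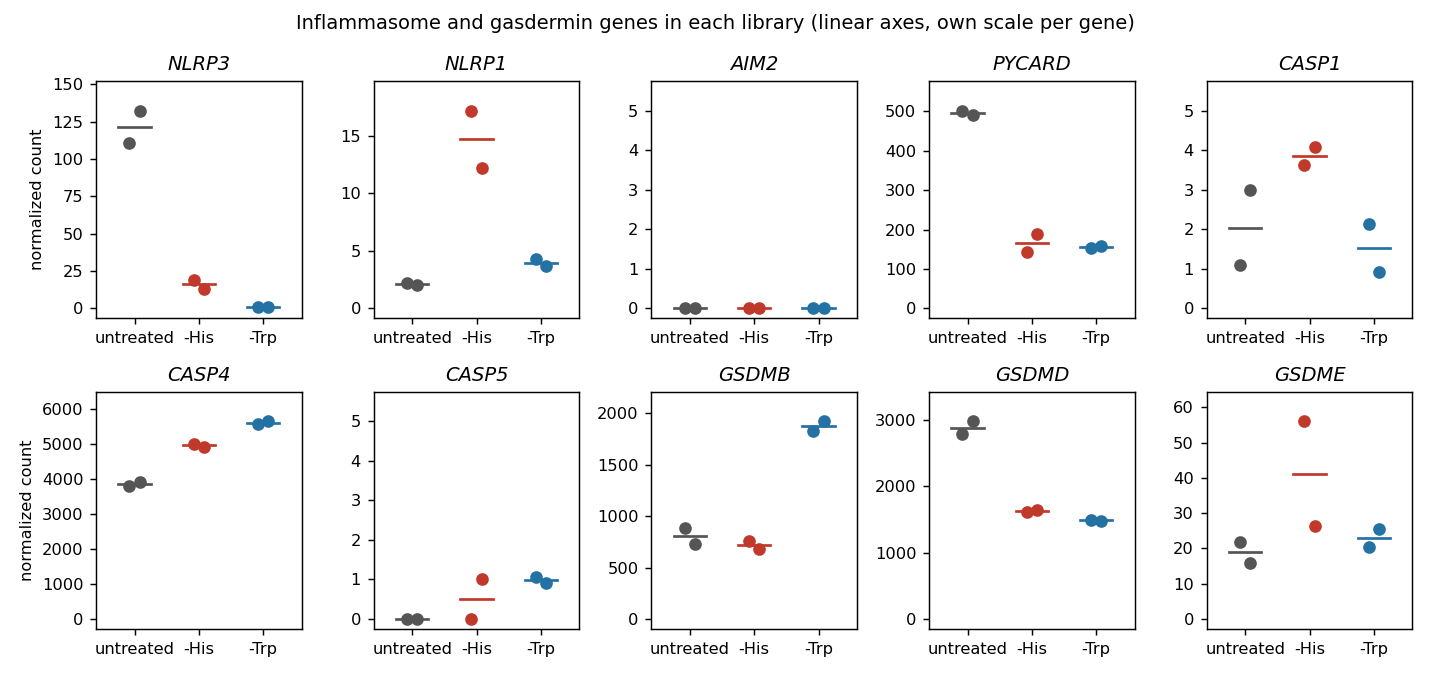
Normalized count (vertical axis, linear, own scale for each gene) of the 10 members in each library of untreated, -His and -Trp HT29 cells; points are libraries and lines are means of 2. NLRP3 and PYCARD sit lower in all 4 depleted libraries, GSDMB is high only in the -Trp libraries, and AIM2 is at 0 throughout.

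NLRP3, the sensor that responds to potassium loss, crystals and many other disturbances of the cell, is on chromosome 1 of GRCh38 (chr1:247416156-247449108, plus strand). Its promoter, from 250 bases before to 50 bases after the RefSeq start, is shown because this was the member with the largest fall (chr1:247415923-247416222, plus strand, build GRCh38.p14, from RefSeq, 5′ to 3′). Capitals mark a match to the TGATGNAA element of the stress factors ATF4 and CHOP, which begins 80 bases before the start, and a TATAAA box 29 bases before it.
NLRP3: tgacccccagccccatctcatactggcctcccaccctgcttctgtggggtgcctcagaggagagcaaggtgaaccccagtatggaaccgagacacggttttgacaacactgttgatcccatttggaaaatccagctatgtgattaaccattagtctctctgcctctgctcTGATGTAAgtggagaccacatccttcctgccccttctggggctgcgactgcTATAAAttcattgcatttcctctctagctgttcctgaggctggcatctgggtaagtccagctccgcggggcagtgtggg
The TGATGNAA letters were found in 3.67% and TATAAA in 11.95% of 27305 promoter windows of this length, searched on both strands. The window held 5 CpG, where the median over all windows was 14, and had 54.0% GC. These matches describe letters and not bound sites.

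Untreated libraries 1 and 2 held 110 and 132 normalized counts of NLRP3, from 101 and 133 reads. The -His libraries held 19.0 and 13.2, and the -Trp libraries 1.07 and 0.916, which was 1 read in each. The groups did not overlap, with untreated cells highest, -His between and -Trp close to no signal. In -His the log2 fold change was -2.84 (SE 0.245, limma, adjusted p = 1.48e-10), and the pooled reads, 34 against 234, gave a level 7.49-fold lower (95% interval 5.21 to 11.1, counting error only). In -Trp the pooled reads, 2 against 234, gave a level 124-fold lower with a wide interval (33.8 to 1027), and the limma value of -5.93 depends on the pseudocount, being -3.82 with a pseudocount of 8. In the fit of all 6 libraries NLRP3 was higher in -His than in -Trp by 3.08 on the log2 scale (SE 0.355). In pooled reads the level was 16.5-fold higher (4.23 to 142). Both values rest on 34 reads in -His and 2 in -Trp, and the log2 value was 1.41 with a pseudocount of 8. NLRP3 entered the comparisons with -Trp through its level in untreated cells, since its -Trp libraries lay under the filter. Therefore no p is given for either of these comparisons. NLRP3 was not tested in the fit of the 4 depleted libraries alone. A same-strand lncRNA annotated in GENCODE 44 (ENSG00000289728) covers 66.0% of the exonic bases of NLRP3. It was not analysed here, and reads from it cannot be told apart from those of NLRP3 in these counts.

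NLRP1, a sensor of epithelial cells that responds to viral proteases, to ribosome stress and to inhibition of DPP8 and DPP9, is on the minus strand (chr17:5499415-5619424). It moved the other way but stayed rare. Untreated libraries had 2.19 and 1.99 normalized counts, -His libraries 17.2 and 12.2, and -Trp libraries 4.27 and 3.66. The -His libraries were above all others and the -Trp libraries above the untreated ones, from 31, 8 and 4 pooled reads in -His, -Trp and untreated cells. The pooled level was 7.12-fold higher in -His than in untreated cells (2.52 to 27.8), and 3.76-fold higher than in -Trp (1.69 to 9.47). In -Trp the ratio to untreated cells was 1.89, with an interval from 0.507 to 8.59 that does not settle a direction. NLRP1 was below the filter and has no test in the main design. An alternative limma fit over all genes with any read gave a log2 fold change of 2.33 in -His (adjusted p = 0.00327). Between -His and -Trp that fit gave 1.64 (adjusted p = 0.0192). CASP1 and CASP5, also below the filter, passed the threshold in no comparison of that fit.

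AIM2, the sensor of cytosolic DNA (chr1:159061599-159187843, minus strand), had 0 reads in all 6 libraries. A count of 0 allows a level of up to 0.00472 RPKM (reads scaled to exonic length and library total) in untreated cells, 0.00383 in -His and 0.00423 in -Trp, taking 3 reads over the 2 libraries of a group as the limit. AIM2 mRNA was therefore not detectable at this depth in any condition.

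PYCARD, whose protein ASC links the sensors to caspase-1, lies on the minus strand of chromosome 16 (chr16:31201486-31203450). Its promoter is shown beside that of NLRP3 because both genes fell in both depletions (chr16:31202711-31203010, minus strand, GRCh38.p14, from RefSeq). Capitals mark the GC box GGGCGG, 57 bases before the start on the gene's strand and 7 bases before it on the opposite strand, where it reads CCGCCC.
PYCARD: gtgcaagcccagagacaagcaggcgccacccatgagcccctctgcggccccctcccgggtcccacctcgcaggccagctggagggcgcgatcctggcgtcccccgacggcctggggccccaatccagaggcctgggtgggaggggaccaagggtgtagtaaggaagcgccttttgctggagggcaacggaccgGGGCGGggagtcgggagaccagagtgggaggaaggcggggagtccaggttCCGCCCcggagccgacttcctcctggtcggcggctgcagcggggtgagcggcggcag
The window held 23 CpG and 72.0% GC, against a median of 58.3% GC over all windows, and 44.6% of all windows held a GC box. The PYCARD and NLRP3 windows shared no matched motif among the 7 searched.

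Untreated libraries held 502 and 491 normalized counts of PYCARD. The -His libraries held 144 and 189, and the -Trp libraries 153 and 158. All 4 depleted libraries were well under both untreated ones, and the -Trp libraries lay between the -His ones. The log2 fold change was -1.58 in -His (SE 0.117, limma, adjusted p = 9.57e-12) and -1.68 in -Trp (SE 0.105, adjusted p = 5.89e-32), which is 2.98-fold and 3.20-fold lower. Between -His and -Trp the difference was 0.08 on the log2 scale (95% interval -0.18 to 0.35, adjusted p = 0.547), which leaves differences of up to 1.27-fold possible. It was 0.28 (adjusted p = 0.0495) without -His library 1 and -0.11 (adjusted p = 0.439) without -His library 2. The antisense gene PYCARD-AS1 overlaps 59.7% of the exonic bases of PYCARD on the opposite strand and had at most 1.99 normalized counts in any library. The kit kept strand, but whether the counting used it was not stated.

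The inflammatory caspases sit side by side on the minus strand of chromosome 11, CASP4 at chr11:104942866-104969366, CASP5 at chr11:104994235-105023168 and CASP1 at chr11:105025397-105035250. CASP4, the receptor of cytosolic lipopolysaccharide, was the only caspase of the cluster with more than a few reads. Its promoter is shown because it was the member of the cluster that was expressed and that rose in both depletions (chr11:104968525-104968824, minus strand, GRCh38.p14, from RefSeq), with capitals on a GC box that begins 44 bases before the start and lies on the opposite strand.
CASP4: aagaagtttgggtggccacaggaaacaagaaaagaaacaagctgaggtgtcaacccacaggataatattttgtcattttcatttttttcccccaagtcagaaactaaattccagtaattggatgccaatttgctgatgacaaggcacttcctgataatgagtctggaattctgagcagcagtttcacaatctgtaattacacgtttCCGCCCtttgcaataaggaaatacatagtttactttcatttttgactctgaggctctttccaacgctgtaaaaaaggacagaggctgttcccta
It held 3 CpG and 39.7% GC and none of the other letters searched, which were TTCNNNGAA (7.88% of all windows, an interferon gamma activated site), GAAANNGAA (8.29%, the interferon regulatory factor core), TGANTCA (7.76%, AP-1), TATAAA, TGATGNAA and the NF-kB motif (10.8%). The first and the third of these read alike on both strands, and no match in the windows of NLRP3, PYCARD and CASP4 overlapped another.

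CASP4 had 3793 and 3912 normalized counts in untreated libraries, 5014 and 4928 in -His and 5580 and 5651 in -Trp. The groups did not overlap and rose in the order untreated, -His, -Trp. The rise was 1.30-fold in -His (log2 0.38, SE 0.0504, limma, adjusted p = 3.11e-07) and 1.45-fold in -Trp (log2 0.54, SE 0.0474, adjusted p = 1.18e-20). The direct comparison placed -His below -Trp by 0.18 on the log2 scale (log2 fold change -0.18, SE 0.0398, adjusted p = 0.000694). After quantile normalization the log2 fold change was 0.23 in -His (limma, adjusted p = 0.000165) and -0.28 between the depletions (adjusted p = 3.91e-06). These differences were small but exceeded the spread between libraries, from 7403 reads or more per group. CASP1, the caspase of the canonical inflammasome, had 1 and 3 reads in untreated libraries, 4 and 4 in -His and 2 and 1 in -Trp. CASP5, the close relative of CASP4, had 0 reads in both untreated libraries, 1 in 1 of the -His libraries and 1 in each -Trp library. Neither count supports a comparison between groups. Their neighbours CASP12 and CARD16, the latter a decoy that resembles the CARD of caspase-1, had at most 1 read in each library. CASP1, CASP4, CASP5 and CARD16 share sequence, and how reads matching more than 1 of them were counted was not stated.

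Among the gasdermins, GSDMD is the common substrate of caspase-1 and caspase-4 and is on chromosome 8 (chr8:143553207-143563062, plus strand). Untreated libraries held 2786 and 2973 normalized counts, -His libraries 1613 and 1644, and -Trp libraries 1493 and 1475. Every depleted library was below both untreated ones, and the -Trp libraries were below the -His ones. The log2 fold change was -0.81 in -His (SE 0.0562, limma, adjusted p = 2.38e-12) and -0.96 in -Trp (SE 0.0531, adjusted p = 3.65e-37), which is 1.76-fold and 1.95-fold lower. The direct comparison gave a level in -His that was 1.10-fold that in -Trp (log2 0.13, SE 0.0489, adjusted p = 0.0199). That call was lost without -His library 2 (adjusted p = 0.0907), -Trp library 1 (0.0685) or -Trp library 2 (0.106), with log2 values of 0.12, 0.14 and 0.13.

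GSDMB, a gasdermin of airway and gut epithelium that granzyme A can cut, is at chr17:39904595-39919854 on the minus strand. Its untreated libraries held 886 and 731 normalized counts, its -His libraries 759 and 684, and its -Trp libraries 1822 and 1919. The -Trp libraries stood apart from the other 4, among which untreated and -His overlapped. In -Trp GSDMB rose by 1.21 on the log2 scale (SE 0.0625, limma, adjusted p = 8.25e-40), which is 2.31-fold. In -His the log2 fold change was -0.15 (95% interval -0.33 to 0.02, adjusted p = 0.107). Without untreated library 2 that value was -0.29 (adjusted p = 0.00660), without -His library 1 it was -0.23 (adjusted p = 0.0335), without untreated library 1 it was -0.015 (adjusted p = 0.883), and after quantile normalization it was 0.05 (adjusted p = 0.667). The direct comparison placed -His 2.59-fold below -Trp (log2 -1.37, SE 0.0791, adjusted p = 3.28e-11).

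GSDME, the gasdermin that caspase-3 cuts in cells undergoing apoptosis, is at chr7:24698355-24757940 on the minus strand and was weakly expressed. Untreated libraries held 21.9 and 15.9 normalized counts, -His libraries 56.0 and 26.5, and -Trp libraries 20.3 and 25.6. Both -His libraries were above all others, -His library 2 by less than 1 normalized count over -Trp library 2, and untreated and -Trp overlapped. In -His the log2 fold change was 1.02 (SE 0.332, limma, adjusted p = 0.00784). It was 0.49 (adjusted p = 0.295) without -His library 1, 0.80 (adjusted p = 0.0748) without untreated library 2 and 1.55 (adjusted p = 7.48e-05) without -His library 2. In -Trp the log2 fold change was 0.27 (95% interval -0.41 to 0.95, adjusted p = 0.491). With 1 library omitted, this log2 fold change ranged from 0.051 (without untreated library 2) to 0.49 (without untreated library 1). Between -His and -Trp it was 0.73 (unadjusted 95% interval 0.0050 to 1.46, adjusted p = 0.0624), 1.26 (adjusted p = 0.00452) without -His library 2 and 0.21 (adjusted p = 0.658) without -His library 1. From 36, 88 and 47 pooled reads in untreated, -His and -Trp cells, the ratio to untreated cells was 2.25 in -His (1.51 to 3.41) and 1.24 in -Trp (0.783 to 1.96), by counting error only.

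**Figure D2:**
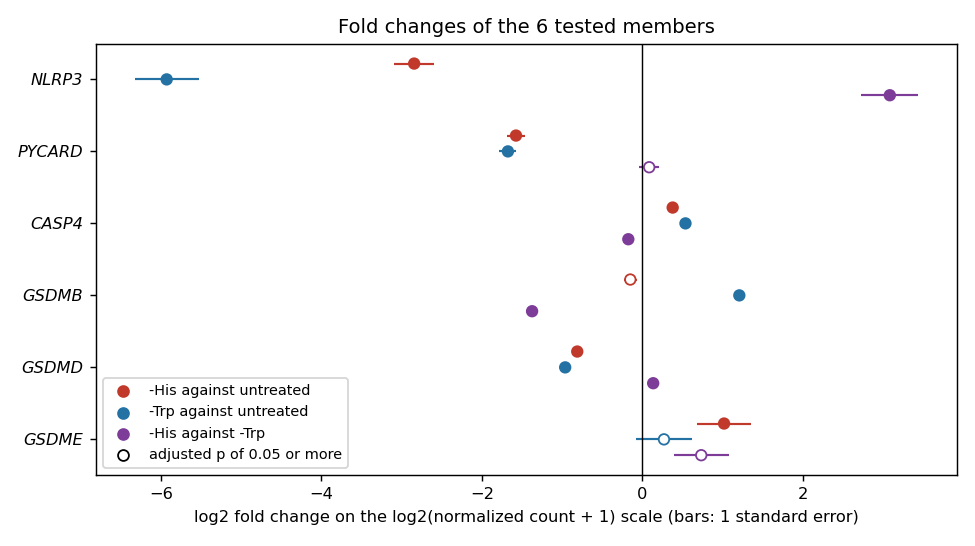
Log2 fold change on the log2(normalized count + 1) scale (horizontal axis; bars, 1 SE) of the 6 members that passed the filter, for -His against untreated, -Trp against untreated and -His against -Trp; open circles have an adjusted p of 0.05 or more. NLRP3 has the largest differences in all 3 comparisons, with -2.84 in -His and -5.93 in -Trp. In both comparisons with -Trp it met the filter through its untreated level alone, so its filled symbols there stand for no test. Each -Trp library held 1 read of NLRP3, and with a pseudocount of 8 the values were -3.82 against untreated and 1.41 for -His against -Trp.

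In the direct comparison of the depletions, 4 of the 6 members tested passed the threshold, where 76.7% of 18264 genes passed (38.7% higher, 38.0% lower). GSDMD was higher in -His, and CASP4 and GSDMB were lower. NLRP3 was counted as higher, but met the filter through its untreated level alone. In the fit of the 4 depleted libraries alone, 3 of 5 members tested passed. GSDMB differed by -1.37 on the log2 scale. NLRP3 differed by 3.08, or by 1.41 with a pseudocount of 8, from 2 reads in -Trp. The differences of CASP4 and GSDMD were 0.18 and 0.13 in size. PYCARD and GSDME did not pass.

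Levels of different genes were compared as RPKM, computed from the recovered reads, the length of all annotated exons and the library total. In untreated cells CASP4 (11.2 ± 0.00401, SD, n = 2) and GSDMD (10.99 ± 0.260) were highest and differed by less than the SD of GSDMD. Their order turned when the longest transcript was taken as the length (ratio of CASP4 to GSDMD 1.02 with all exons, 0.976 with the longest transcript). PYCARD followed at 5.81 ± 0.215, GSDMB at 2.66 ± 0.420, NLRP3 at 0.495 ± 0.0522 and GSDME at 0.0428 ± 0.0104, each clear of the next. CASP1 (0.00991 ± 0.00633) and NLRP1 (0.00201 ± 0.000179) came from 4 reads each, and AIM2 and CASP5 had none. In -Trp CASP4 stood at 15.5 ± 0.102, with GSDMB (5.82 ± 0.201) above GSDMD (5.36 ± 0.0583) and PYCARD at 1.72 ± 0.0414. With the longest transcript as the length GSDMD was above GSDMB there too, at 7.88 against 7.39. In -His CASP4 was at 12.8 ± 0.220, GSDMD at 5.49 ± 0.0481, GSDMB at 2.09 ± 0.165 and PYCARD at 1.72 ± 0.324, the last pair within a small distance of each other (1.95 in the higher PYCARD library against 1.98 in the lower GSDMB library).

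**Figure D3:**
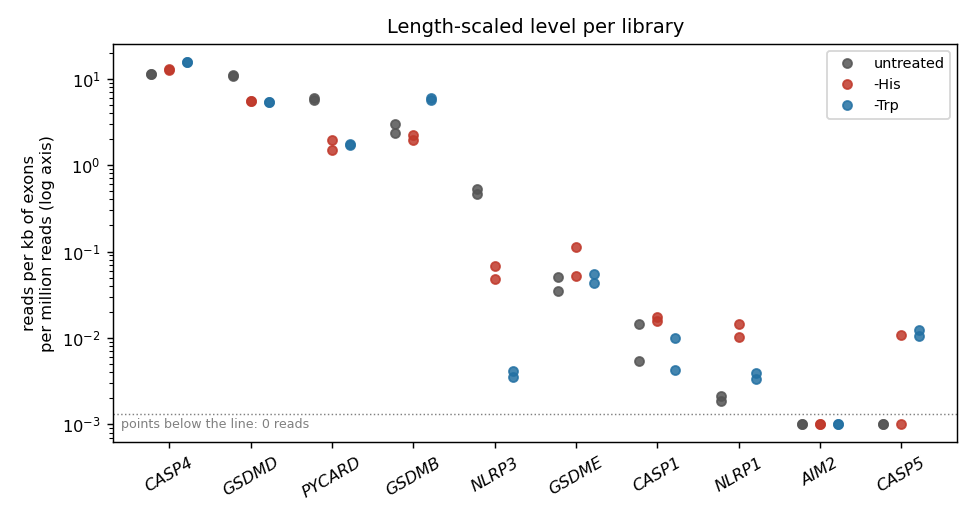
RPKM (vertical axis, log scale) of each member in each library of untreated, -His and -Trp cells; points under the dotted line stand for 0 reads. With all exons as the length CASP4 is highest in every group, though in untreated cells it is within the SD of GSDMD. NLRP3 covers more than 2 orders of magnitude between untreated and -Trp cells. CASP1, AIM2 and CASP5 lie near or at 0 reads, as does NLRP1 outside -His, where it had 31 pooled reads.

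To place these members among the other genes, the protein-coding genes with the most similar profile over the 6 libraries were found by Euclidean distance on the log2 scale, relative to the untreated mean, among 11013 or 11014 genes whose mean over all libraries reached 100 normalized counts. For NLRP3 these were ADH1C, an alcohol dehydrogenase (distance 1.09), and REG4, a secreted lectin of the gut (2.02). ADH1C had 338 and 335 normalized counts in untreated, 51.5 and 66.1 in -His and 7.47 and 6.41 in -Trp libraries, so it too fell most in -Trp. REG4 had 385 and 396, then 26.2 and 42.7, then 14.9 and 10.99. The nearest to PYCARD were CLN6, a protein of the endoplasmic reticulum (0.240), and TONSL, a protein of replication fork repair (0.247), both about 3 times lower in either depletion. For CASP4 they were ZNF317 (0.0487) and METTL25B (0.0503), for GSDMD MECOM, a transcription factor (0.0822), and AP2S1, a subunit of the clathrin adaptor (0.0994), and for GSDMB PTPDC1 (0.227) and NSUN7 (0.231). Of these 5 members, distances were shortest for CASP4 and longest for NLRP3.

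Besides the members, 80 genes of the wider pathway were followed in lists of sensors, decoys and inhibitors, gasdermins and membrane rupture, cytokine substrates, activation and licensing, executioners of apoptosis and necroptosis, and membrane repair. Of the 54 tested in -His, 30 rose and 15 fell (83.3% called, beside 77.3% of all genes), counting the sensor IFI16, which met the filter only through its high -His level. Of the 53 tested in -Trp, 26 rose and 16 fell (79.2%, beside 70.8%). By direction these were 55.6% higher and 27.8% lower in -His, beside 39.1% and 38.2% of all genes, and 49.1% higher and 30.2% lower in -Trp, beside 36.1% and 34.8%. The counts of each list below are to be read against the same shares of all genes. The median log2 fold change was 0.39 in -His and 0.22 in -Trp.

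Of the other sensors, 7 were tested in -His, where 3 rose (IFI16 among them) and 2 fell, and 6 in -Trp, where 3 rose and 1 fell. NOD1, a receptor of bacterial peptidoglycan, fell from 302 and 281 normalized counts to 108 and 150 in -His (log2 -1.18, limma, adjusted p = 4.28e-08) and to 182 and 196 in -Trp (log2 -0.63, adjusted p = 4.52e-07). CARD8, a relative of NLRP1, hardly moved, by -0.13 in -His (adjusted p = 0.0479) and 0.23 in -Trp (adjusted p = 0.000166). Both differences were smaller in size than those of NLRP3.

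Of the decoys and inhibitors, 8 were tested. In -His 5 rose and 3 fell, and in -Trp 5 rose and 2 fell. SERPINB1, which restrains the inflammatory caspases and neutrophil proteases, fell by 1.85 on the log2 scale in -His (adjusted p = 1.13e-19), from 12837 and 13722 to 3528 and 3818 normalized counts. IL1R2, the decoy receptor of IL-1, rose in -His (log2 1.75, adjusted p = 6.18e-14) and fell in -Trp (log2 -1.31, adjusted p = 1.59e-14). SERPINB9, the inhibitor of granzyme B, rose by 1.51 in -His (adjusted p = 1.67e-12). In -Trp the named genes were DPP9, the protease that holds NLRP1 and CARD8 inactive (log2 0.69, adjusted p = 2.22e-29), and the ubiquitin ligase TRIM31, which targets NLRP3 (log2 0.55, adjusted p = 5.52e-22). DPP9 also rose in -His (log2 0.62, adjusted p = 5.32e-11), whereas TRIM31 fell there (log2 -0.31, adjusted p = 5.13e-06).

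Of the other gasdermin and membrane rupture genes, 3 were tested, of which 2 fell in -His and 1 rose in -Trp. NINJ1, which tears the plasma membrane open after gasdermin pores have formed, had 1089 and 1343 normalized counts in untreated, 733 and 800 in -His and 2819 and 2724 in -Trp libraries. It fell in -His (log2 -0.65, adjusted p = 1.19e-07) and rose in -Trp (log2 1.19, adjusted p = 5.26e-43), where GSDMB also rose (log2 1.21).

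Of the cytokine substrates, only IL18 and IL1A reached the filter. IL18, whose product caspase-1 and caspase-4 mature, rose from 433 and 411 to 633 and 659 normalized counts in -His (log2 0.62, adjusted p = 2.32e-07) and fell to 256 and 242 in -Trp (log2 -0.77, adjusted p = 5.80e-12). IL1B, the best known product of the inflammasome, had 4.37 and 5.97 normalized counts in untreated libraries and at most 4.27 in the depleted ones.

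Of the 15 activation and licensing genes tested, 10 rose and 2 fell in -His, and 9 rose and 6 fell in -Trp. GBP1, a guanylate-binding protein that coats bacteria and recruits caspase-4, had 75.4 and 62.7 normalized counts in untreated, 2371 and 2391 in -His and 179 and 250 in -Trp libraries, a rise of 5.10 (adjusted p = 5.32e-23) and of 1.60 (adjusted p = 9.44e-18) on the log2 scale. TXNIP, an arrestin that can bind NLRP3, rose by 4.51 in -His (adjusted p = 4.01e-27) and 3.21 in -Trp (adjusted p = 1.11e-104). IRF1, the interferon-inducible factor that drives many guanylate-binding proteins, rose by 1.90 in -His (adjusted p = 1.11e-19). TLR4, the surface receptor of lipopolysaccharide, fell by 2.31 in -Trp (adjusted p = 2.04e-17), from 103 and 124 to 21.3 and 22.9 normalized counts, and had 294 and 279 in -His.

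Of the 8 executioners of apoptosis and necroptosis, all tested, 3 rose and 4 fell in -His, and 3 rose and 3 fell in -Trp. CASP6, an executioner caspase, fell in both, from 1859 and 2015 normalized counts to 388 and 418 in -His (log2 -2.25, adjusted p = 6.86e-19) and 500 and 533 in -Trp (log2 -1.91, adjusted p = 6.60e-60). CASP9, the initiator caspase of the apoptosome, rose by 1.99 in -His (adjusted p = 1.90e-19), and CASP10, an initiator caspase of death receptors, fell by 1.77 (adjusted p = 2.90e-15). In -Trp MLKL, the pore protein of necroptosis, fell by 0.91 (adjusted p = 5.89e-28), having risen by 0.26 in -His (adjusted p = 0.000719), and its kinase RIPK3 rose by 0.44 (adjusted p = 6.04e-06).

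All 11 genes of the ESCRT machinery, which removes damaged membrane and can close gasdermin pores, were tested. In -His 8 rose and 2 fell, with CHMP2B (log2 1.58), CHMP4B (1.33) and TSG101 (1.23) largest, at adjusted p of 1.79e-17, 6.44e-17 and 1.18e-16. In -Trp 5 rose and 3 fell, by less: PDCD6IP by 0.51, CHMP2B by 0.43 and VPS4B by 0.39, at adjusted p of 7.68e-20, 4.25e-12 and 7.11e-13. Of those named for -His, TSG101 (log2 -0.26, adjusted p = 4.31e-07) and CHMP4B (log2 -0.13, adjusted p = 0.00973) were among the genes that fell in -Trp.

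**Figure D4:**
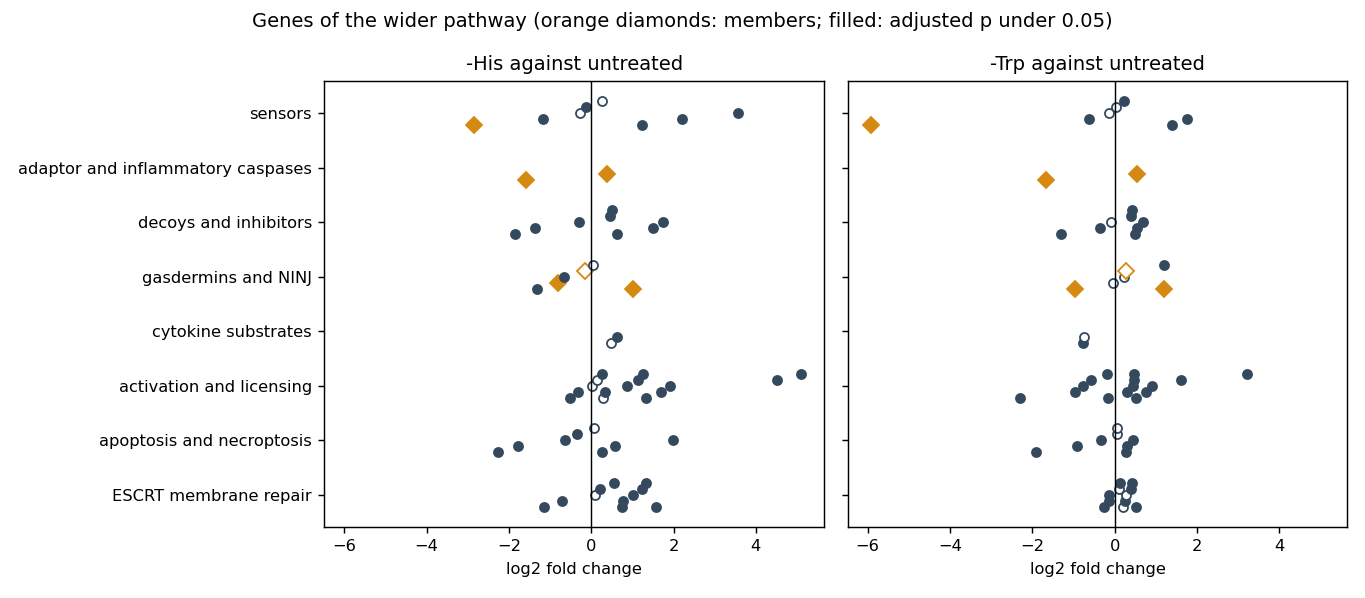
Log2 fold change (horizontal axis) of each tested gene by list (vertical axis) in -His against untreated (left) and -Trp against untreated (right); orange diamonds are the members, circles the other genes, and filled symbols have an adjusted p under 0.05. NLRP3 lies at the low end of both panels, while GBP1 and TXNIP lie at the high end of -His, at 5.10 and 4.51. The filled symbols of NLRP3 in -Trp and of IFI16 in -His stand for no test, since each met the filter through a single group.

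A couple of neighbouring genes, chosen here after their values were seen, are given beside their members. ZNF496, next to NLRP3, fell like it in both depletions but by less, by 0.99 on the log2 scale in -His (limma, adjusted p = 3.33e-14) and 0.14 in -Trp (adjusted p = 0.00767). ORMDL3, next to GSDMB at chr17:39921041-39927601, had 3216 and 3179 normalized counts in untreated, 2070 and 2362 in -His and 3197 and 3216 in -Trp libraries. Its log2 fold change in -Trp was -0.0033 (SE 0.0491, limma, adjusted p = 0.955), where GSDMB rose by 1.21, and in -His it was -0.52 (adjusted p = 1.90e-08), where GSDMB stood at -0.15.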

How the data were processed

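RNA was measured by stranded mRNA sequencing of 6 HT29 libraries. As the authors describe it, and per the submitters' processing notes, reads were aligned with STAR 2.7.10a to GRCh38 and counted on exons with HTSeq 2.0.5 and GENCODE 38. The deposited values are a signal of reads per gene divided by the DESeq2 size factor of a library, in 2 tables that were normalized separately and share the untreated libraries. The adapters carried molecular identifiers, and whether these, strand or reads with several matches entered the counting is not stated in the sources used here. Dividing by the smallest step in a library gave back whole reads for 100% of values (within 0.01), 46390819 to 64388876 per library, and the untreated reads were the same in both tables. A common scale for all 6 libraries was set by median-of-ratios size factors.

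Genes whose mean over a comparison reached 10 normalized counts were tested with limma 3.58.1 (trend, two-sided) in R 4.3.3 on log2(value + 1), with Benjamini-Hochberg adjustment over all genes tested and a threshold of 0.05, and -His was compared with -Trp in a fit of all 6 libraries. The design was set for such values because they are not raw counts. edgeR 4.0.16 and DESeq2 1.42.0 on the recovered reads, other pseudocounts, filters and scalings, a replicate block and the omission of each library were the alternatives. The p-values rest on the spread between the 2 libraries of a group, which may be technical. limma also draws the spread of each gene toward that of other genes of like level. Very small p-values therefore do not measure a gene's own spread alone. For GSDMB in -Trp the adjusted p was 8.25e-40 in the main limma fit and 0.00428 without the trend. Intervals on pooled reads are exact, at 95%, and cover counting error only. The script was tested on simulated data.

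All members are named, with up to 3 genes per pathway list and depletion that had the largest called change and a mean of at least 100 in the higher group, the 2 nearest profiles of each called member (those of GSDME are not reported here), and overlapping genes. Promoters are shown for NLRP3, PYCARD and CASP4 only. Those of AIM2, CASP5 and GSDME were searched but not printed, and GSDMB, NLRP1, CASP1 and GSDMD had no promoter window here. The members and lists were chosen with earlier results of these data known.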

Additional observations from a re-analysis of the deposited data

Results flagged for a closer look

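The members below passed the direct test between the 2 depletions (limma over 6 libraries, adjusted p under 0.05), which is what singled them out. NLRP3 was higher in -His than in -Trp by 3.08 on the log2 scale and lower than untreated in both. It was in the test through its untreated level alone, so no p is given for it. GSDMB had a log2 difference of -1.37 between -His and -Trp, having risen in -Trp and not passed the test in -His. For CASP4 the log2 difference was -0.18, with a rise in both depletions. For GSDMD it was 0.13, with a fall in both. The call was lost without -His library 2, -Trp library 1 or -Trp library 2. Among the depleted libraries, only the omission of -His library 1 kept it.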

How the results depend on the processing

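Over 259 values of single members under other settings, 239 kept their direction and side of the threshold, 10 lost the call, 8 gained it and 2 changed sign. The signs that changed were GSDMB in -His after quantile normalization (0.051, adjusted p = 0.667) and PYCARD between -His and -Trp without -His library 2 (-0.11, adjusted p = 0.439, against 0.28 without -His library 1). The cause was not tested. Apart from the limit on fold change below, the following calls held in every alternative that tested the gene. Against untreated cells they were PYCARD, CASP4 and GSDMD in both depletions, NLRP3 in -His and GSDMB in -Trp. Between the depletions they were CASP4 and GSDMB. NLRP3 between the depletions is left out, since it was not tested in the fit of the 4 depleted libraries or with a required mean of 50. The GSDME call in -His was also lost without a filter (adjusted p = 0.0609), without the trend (0.110) and with DESeq2 (0.0545), and ranged from 7.48e-05 to 0.295 over its alternatives. The GSDMD call between the depletions was also lost without the trend (0.0713) and with DESeq2 (0.0513).

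When a log2 fold change of 1 or more in size was also required, 3 members were called in -His, 3 in -Trp and 2 between the depletions, CASP4 and GSDMD being lost in all 3 comparisons. Omitting 1 library gave 5 to 6 members in -His, 5 in each case in -Trp, and 3 to 5 between the depletions. The -His counts without either untreated library include NLRP1, which reached the filter there only through its -His level. The ratio of CASP4 to GSDMD was 0.976 with the longest transcript. Library numbers did not pair the samples (correlations of 0.117, -0.053 and -0.104 between groups). With a replicate block, 6 members were called in -His, now with GSDMB (adjusted p = 0.0396), 5 in -Trp and 5 between the depletions, now with GSDME (adjusted p = 0.0488), which also passed there with edgeR (0.0221) and a pseudocount of 8 (0.0376). Depth limits NLRP1, CASP1, CASP5, AIM2 and GSDME in all groups and NLRP3 in -Trp.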

Other observations

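The sensors NLRC4, NLRP9 and IFI16 lie outside the rule for named genes and were chosen after their values were seen. NLRC4, the sensor that NAIP proteins activate after binding flagellin, had 24.0 and 14.9 normalized counts in untreated, 106 and 77.3 in -His and 67.2 and 65.9 in -Trp libraries. It rose by 2.20 on the log2 scale in -His (limma, adjusted p = 5.08e-08) and by 1.75 in -Trp (adjusted p = 4.63e-09). NLRP9, a sensor of the intestinal epithelium, had 12.02 and 10.94 normalized counts in untreated, 27.1 and 29.5 in -His and 28.8 and 35.7 in -Trp libraries, a rise of 1.24 (adjusted p = 0.00203) and of 1.40 (adjusted p = 0.000220). IFI16, a nuclear DNA sensor of the same family as AIM2, had 7.65 and 0.995 normalized counts in untreated libraries, 45.2 and 50.9 in -His and 5.34 and 3.66 in -Trp. It reached the filter only through its -His libraries, so no test is given, while AIM2 itself had 0 reads in every library.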
